A study of Mus musculus with 24 samples.

Results

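Formative and primed epiblast factors were followed across Tet deletion lines of mouse embryonic stem cells (ESC) as 6 genes: Fgf5, Otx2, Pou3f1, Sox3, Zic2 and Sox4. They were chosen by symbol for their known expression in the post-implantation epiblast, out of 22926 gene symbols in the count tables. The choice was made with earlier results of these data known. Expression was measured by RNA-seq of polyadenylated RNA in 24 libraries, each from 1 clone, taken before (D0, 12 libraries) and after 6 days (D6, 12 libraries) of growth without leukemia inhibitory factor (LIF), the cytokine that keeps mouse ESC self-renewing. Each day had 2 clones of TKO (all 3 Tet genes deleted), 2 of DKO (deleted for both Tet1 and Tet2), 2 of Tet2-/-, 3 of Tet1-/- and 3 of wild type (WT).

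All lines, WT included, came from 1 parental line of 129/SVj ESC in which an IRES and eGFP had been knocked in at Pou5f1, and all were kept on gelatin without feeder cells. The knockouts carried CRISPR/Cas9 indels, so each clone is an edited line of its own and the spread between libraries is a spread between clones. WT, Tet2-/-, DKO and TKO had the same clones at both days, whereas Tet1-/- clone 2.3 has no D6 library and clone 2.2 no D0 library. Clones are named here by the endings of their labels, such as TKO_8.12, and the D6 library whose label lacks the point was taken as clone DKO_5.12. D0 and D6 counts were deposited as separate tables, so the day and anything else that differed between the tables cannot be told apart.

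As background, ESC in LIF resemble the naive epiblast of the blastocyst, and on leaving that state they pass through a formative stage before they are primed for germ layer formation. Fgf5, a secreted fibroblast growth factor, is a classical marker of this transition. Otx2, a homeobox factor, works with Pou5f1 at enhancers of the post-implantation epiblast, and Pou3f1 (Oct6) is a POU factor of the same tissue. Sox3 is a SoxB1 factor close to Sox2 that continues into neural tissue, Zic2 is a zinc finger factor of epiblast and neural plate, and Sox4 is a SoxC factor of many embryonic progenitors. Tet enzymes oxidise 5-methylcytosine, which in mammals lies mostly at CG dinucleotides.

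The gene models lie, in build mm9 with GENCODE vM1 annotation, on chromosome 5 (Fgf5, 98683203 to 98706049, plus strand), chromosome 14 (Otx2, 49277354 to 49287319, minus strand, and Zic2, 122874604 to 122879074, plus strand), chromosome 4 (Pou3f1, 124334896 to 124337899, plus strand), chromosome X (Sox3, 58144545 to 58146605, minus strand) and chromosome 13 (Sox4, 29040788 to 29045582, minus strand). All are protein coding. Sox4 overlaps the antisense lincRNA Gm17419 over 2753 bases, and since no strand setting is given for the counting in the sources used here, reads of both cannot be told apart there, and Pou3f1 overlaps a pseudogene model of its own name over 3004 bases. Otx2 has 4 rows and Fgf5 2 rows in the tables, whose highest totals were 1.03 and 1.06 times those of the row used.

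RefSeq promoter sequences (GRCm38.p6) were at hand for 3 of the 6 genes, Fgf5, Otx2 and Sox4. They are shown because CG dinucleotides, the substrate sites of Tet enzymes when methylated, differ in number between them. Each is the 250 bases before the start site, 5′ to 3′ on the gene's strand, with CG in capitals, at chr5:98253934-98254183 (Fgf5, plus strand), chr14:48667645-48667894 (Otx2, minus strand, the most upstream of 4 start sites) and chr13:28953700-28953949 (Sox4, minus strand).
Fgf5: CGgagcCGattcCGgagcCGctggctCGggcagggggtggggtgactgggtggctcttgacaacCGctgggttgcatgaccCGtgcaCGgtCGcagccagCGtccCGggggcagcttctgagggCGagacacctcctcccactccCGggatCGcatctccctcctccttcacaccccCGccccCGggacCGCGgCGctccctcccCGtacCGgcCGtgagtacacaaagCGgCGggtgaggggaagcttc
Otx2: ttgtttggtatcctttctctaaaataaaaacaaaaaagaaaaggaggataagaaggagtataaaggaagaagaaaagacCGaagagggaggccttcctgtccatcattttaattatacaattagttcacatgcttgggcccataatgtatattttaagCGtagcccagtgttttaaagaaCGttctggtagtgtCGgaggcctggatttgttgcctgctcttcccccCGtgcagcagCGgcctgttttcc
Sox4: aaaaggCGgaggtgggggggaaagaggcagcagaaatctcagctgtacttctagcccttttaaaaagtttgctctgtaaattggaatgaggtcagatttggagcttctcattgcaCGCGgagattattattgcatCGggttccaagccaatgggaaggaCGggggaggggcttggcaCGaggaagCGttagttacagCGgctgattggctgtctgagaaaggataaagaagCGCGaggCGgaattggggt
CG, which reads the same on both strands, occurred 24 times in the Fgf5 sequence, 11 times in that of Sox4 and 6 times in that of Otx2, and 8, 14 and 9 times at the other Otx2 start sites. Of 32841 promoter sequences of this length, 92.1% held at least 1 CG, the median was 6, and 3935 held as many as Fgf5 or more. These counts describe the letters of the reference only, and methylation was not analysed here.

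Libraries held 18400463 to 37290208 counts, and 3 counts, the limit that a count of 0 allows, corresponded to 0.0814 to 0.151 CPM, the usual scaling of counts to library size, here with TMM factors. Intervals and limits from counts cover counting error only. Indels need not lower a transcript, and Tet1 RNA in TKO at D0 was 41.7 CPM in clone TKO_8.12 and 568 in clone TKO_8.4, against 220 to 431 in WT. In Tet1-/- it was 93.4 and 126 CPM in clones 2.1 and 2.3 and 358, inside the WT range, in clone 2.4, which at D6 had 190 CPM against 108 to 125 in WT. Tet2 RNA at D0 was 20.9 and 23.2 CPM in Tet2-/- clones and 87.9 to 94.0 in WT. At D6 it was 15.9 to 16.6 and 12.3 to 16.0 CPM. In clones DKO_5.11 and DKO_5.12 Tet2 RNA at D0 was 55.7 and 22.3 CPM, and in clones TKO_8.4 and TKO_8.12 42.5 and 8.16. Tet3 RNA at D0 was 2.84 to 4.43 CPM in TKO and 5.05 to 7.94 in WT. The authors report indels by sequencing and loss of protein by Western blot for these lines. The 6 ESC marker genes (Pou5f1, Sox2, Nanog, Sall4, Zfp42, Utf1) were detected in every library, with summed levels of 3633 to 4540 CPM at D0 and 1090 to 2540 at D6. In libraries of whole cultures, fewer cells expressing a gene and less RNA per cell cannot be told apart.

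The first comparison asked how the factors changed on LIF withdrawal. All 6 rose in WT and in Tet1-/-, 5 rose in DKO and Tet2-/- cells, and 3 (Fgf5, Pou3f1 and Zic2) rose in TKO, a called rise being a log2 fold change over 1 with an adjusted p under 0.05 in edgeR's quasi-likelihood test. The share of all 15639 genes called higher was 20.7% in WT, 19.9% in Tet1-/-, 12.7% in Tet2-/- cells, 18.6% in DKO cells and 16.8% in TKO. No member fell, while the share of all genes called lower was 13.3% in WT, 11.2% in Tet1-/-, 6.44% in Tet2-/- cells, 10.6% in DKO cells and 8.63% in TKO. Fgf5, Pou3f1 and Zic2 were called in every genotype, Otx2 and Sox3 in 4 genotypes and Sox4 in WT and Tet1-/-. A call missed in a genotype is no test of a difference from WT, and the test of the change against WT was not passed by Otx2 or Sox3 in TKO (adjusted p = 0.190 and 0.257) or by Sox4 in Tet2-/- or DKO (0.304 and 0.782). The calls missed in TKO were Otx2 (log2 fold change 0.90 ± 0.40 SE, adjusted p = 0.0699), Sox3 (0.98 ± 0.45, adjusted p = 0.0789) and Sox4 (-0.24 ± 0.27, adjusted p = 0.482). Otx2 and Sox3 passed in TKO when libraries were scaled by their totals alone (1.09 and 1.17), a scaling that moved all D6 against D0 values up by 0.14 to 0.21. They also passed without clone TKO_8.12 at D6 (1.32 and 1.33), and Sox3 without the same clone at D0 (1.87). Leaving out another single library brought the TKO rises down to 0.34 for Otx2 and 0.44 for Sox3.

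**Figure D1:**
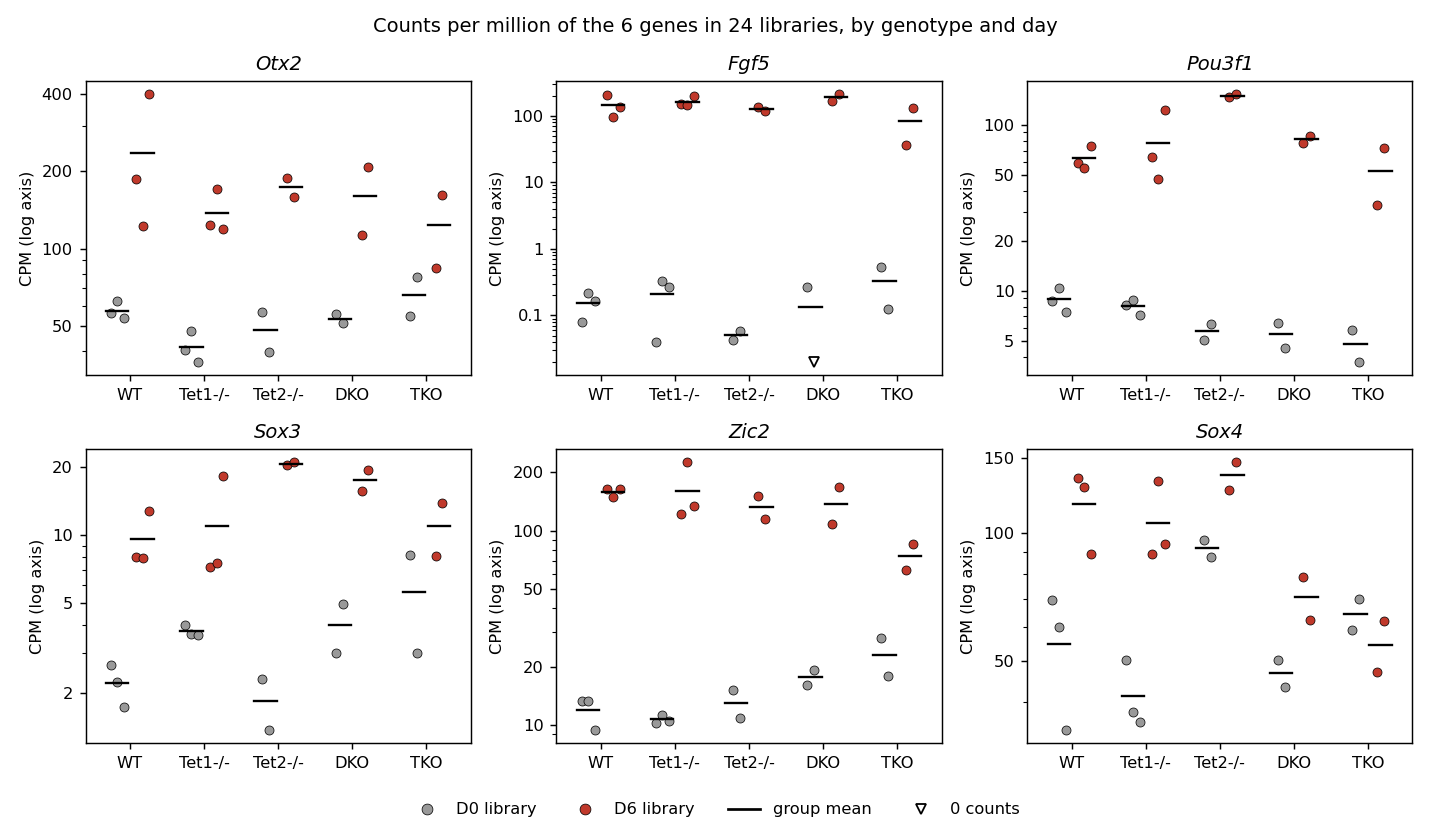
Expression in CPM (log axis) of the 6 genes in each of the 24 libraries, by genotype, with D0 libraries in grey, D6 libraries in red and group means as bars; a triangle marks the library with 0 counts. D6 values lie above D0 values of the same genotype for every gene except Sox3 and Sox4 in TKO, where the days overlap.

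Fgf5 was almost undetected at D0. It had 2, 4 and 5 counts in WT clones O4.1, O4.2 and O4.13, 1, 8 and 6 in Tet1-/- clones 2.1, 2.3 and 2.4, 1 and 2 in clones Tet2_KO_3.10 and Tet2_KO_3.11, 6 and 0 in clones DKO_5.11 and DKO_5.12, and 3 and 13 in clones TKO_8.4 and TKO_8.12. At D6 it stood at 202, 135 and 96.1 CPM in WT (same order), 148, 143 and 196 in Tet1-/- (clones 2.1, 2.2, 2.4), 135 and 117 in Tet2-/- cells, 167 and 209 in DKO cells, and 132 and 35.8 in TKO. Every D6 library was far above every D0 library. The ratio of summed counts, scaled for depth, was 896 in WT (95% exact interval 500.3 to 1795), 783 in Tet1-/- (475 to 1400), 2439 in Tet2-/- cells (834 to 11831), 1357 in DKO cells (623 to 3698) and 288 in TKO (177 to 504). The interval of TKO lay below those of Tet2-/- and DKO. These intervals, however, hold no spread between clones, and TKO clones differed 132 to 35.8 at D6. With 1 library left out, the fitted log2 rise ran from 6.73 to 9.34 in TKO. In DKO it ran from 9.46 to 15.3, the last with a lone D0 library at 0 counts. The test of the change in each knockout against that in WT gave adjusted p-values of 0.407 to 0.979 for Fgf5.

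Fgf5 levels at D6 ran, by group mean, from DKO (188 ± 29.8 CPM, SD) through Tet1-/- (162 ± 29.5), WT (144 ± 53.7) and Tet2-/- (126 ± 12.4) to TKO (84.1 ± 68.3). The ranges of all neighbours in that order overlapped. Fgf5 did not pass the filter on low counts at D0, so no knockout was tested against WT there.

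Otx2 was already well expressed at D0, at 56.3, 53.5 and 62.4 CPM in WT (clones O4.1, O4.2, O4.13), 40.4, 47.7 and 36.2 in Tet1-/-, 56.4 and 39.6 in Tet2-/- cells, 55.5 and 51.4 in DKO cells, and 77.7 and 54.5 in TKO. The Tet1-/- clones lay below all WT clones. At D6 it stood at 187, 399 and 123 CPM in WT, 124, 171 and 119.7 in Tet1-/-, 189 and 159 in Tet2-/- cells, 113 and 208 in DKO cells, and 163 and 84.2 in TKO. WT clone O4.2 was the highest of all D6 libraries and clone TKO_8.12 the lowest, and the WT range overlapped that of every knockout. The fitted rise was 4.12-fold in WT (log2 2.04 ± 0.34, adjusted p = 3.68e-05), 1.74 ± 0.34 on the log2 scale in Tet1-/-, 1.86 ± 0.41 in Tet2-/- and 1.59 ± 0.41 in DKO. Without clone O4.2 at D6 the rise in WT was 1.43 on the log2 scale, still called. Without clone DKO_5.12 at D6 the rise in DKO was 1.08 with an adjusted p of 0.0671. By mean, D6 levels fell in the order WT (236 ± 145 CPM), Tet2-/- (174 ± 20.9), DKO (160.5 ± 67.5), Tet1-/- (138 ± 28.3) and TKO (123 ± 55.4), with overlapping ranges between all neighbours.

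Pou3f1 was low at D0, at 8.73, 7.49 and 10.5 CPM in WT (clones O4.1, O4.2, O4.13), 8.16, 8.85 and 7.14 in Tet1-/-, 5.03 and 6.34 in Tet2-/- cells, 6.398 and 4.53 in DKO cells, and 3.72 and 5.77 in TKO. All clones of Tet2-/-, DKO and TKO lay below all clones of WT and Tet1-/-. At D6 it stood at 58.8, 74.4 and 55.1 CPM in WT, 64.2, 46.9 and 122 in Tet1-/- (clones 2.1, 2.2, 2.4), 147 and 152 in Tet2-/- cells, 77.9 and 86.1 in DKO cells, and 72.4 and 33.0 in TKO. The Tet2-/- clones were the highest of the 12 libraries, and Tet1-/- clone 2.4 followed them.

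The rise of Pou3f1 was 7.06-fold in WT (log2 2.82 ± 0.31) and 26.2-fold in Tet2-/- cells (4.71 ± 0.41), with 3.27 ± 0.32 in Tet1-/-, 3.90 ± 0.41 in DKO cells and 3.48 ± 0.40 in TKO on the log2 scale. Its order at D6 was Tet2-/- (149.7 ± 3.98 CPM), DKO (82.0 ± 5.79), Tet1-/- (77.8 ± 39.5), WT (62.8 ± 10.3) and TKO (52.7 ± 27.8). Of these neighbours, Tet2-/- and DKO did not overlap, although the test between them was not passed (adjusted p = 0.182).

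Sox3, on the X chromosome, was the gene with the fewest counts at D0 after Fgf5. It stood at 2.67, 1.73 and 2.25 CPM in WT (clones O4.1, O4.2, O4.13), 4.02, 3.65 and 3.61 in Tet1-/-, 2.304 and 1.37 in Tet2-/- cells, 3.02 and 4.97 in DKO cells, and 3.01 and 8.16 in TKO. Every clone lacking Tet1 was above every WT and Tet2-/- clone, and clone TKO_8.12 stood apart. At D6 it stood at 8.02, 12.8 and 7.90 CPM in WT, 7.23, 7.57 and 18.3 in Tet1-/- (clones 2.1, 2.2, 2.4), 20.4 and 21.0 in Tet2-/- cells, 15.7 and 19.5 in DKO cells, and 13.8 and 8.09 in TKO. Tet2-/- and DKO lay above all WT clones, and Tet1-/- clone 2.4 lay far above the other Tet1-/- clones.

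The rise of Sox3 was 4.32-fold in WT (log2 2.11 ± 0.40) and 11.4-fold in Tet2-/- cells (3.51 ± 0.50), with 1.55 ± 0.38 in Tet1-/- and 2.14 ± 0.47 in DKO cells. Without Tet1-/- clone 2.4 at D6 the Tet1-/- rise was 0.98, below the 2-fold limit. The D6 order was Tet2-/- (20.7 ± 0.43 CPM), DKO (17.6 ± 2.65), Tet1-/- (11.03 ± 6.28), TKO (10.97 ± 4.07) and WT (9.58 ± 2.80), and among neighbours only Tet2-/- and DKO did not overlap (adjusted p = 0.764).

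Zic2 stood at D0 at 13.3, 9.46 and 13.3 CPM in WT (clones O4.1, O4.2, O4.13), 10.3, 11.3 and 10.6 in Tet1-/-, 15.3 and 10.8 in Tet2-/- cells, 16.1 and 19.2 in DKO cells, and 18.0 and 28.2 in TKO. DKO and TKO clones were all above the WT clones. At D6 it stood at 164, 164 and 148 CPM in WT, 122, 225 and 134 in Tet1-/- (clones 2.1, 2.2, 2.4), 151 and 114 in Tet2-/- cells, 109 and 167 in DKO cells, and 85.3 and 63.2 in TKO. At this day the TKO clones were the lowest of all libraries. The rise was 13.2-fold in WT (log2 3.73 ± 0.25) and 3.22-fold in TKO (1.69 ± 0.29), with 3.90 ± 0.26 in Tet1-/-, 3.35 ± 0.31 in Tet2-/- and 2.97 ± 0.30 in DKO. By mean, D6 levels ran from Tet1-/- (160.5 ± 56.2 CPM) and WT (159 ± 9.26) through DKO (138 ± 41.4) and Tet2-/- (133 ± 25.9) to TKO (74.3 ± 15.6), and only the last pair did not overlap (adjusted p = 0.0851).

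Sox4 changed least. At D0 it stood at 69.5, 34.4 and 60.2 CPM in WT (clones O4.1, O4.2, O4.13), 50.2, 37.9 and 35.9 in Tet1-/-, 96.1 and 87.6 in Tet2-/- cells, 50.2 and 43.3 in DKO cells, and 69.8 and 59.2 in TKO. The Tet2-/- clones were the highest. At D6 it stood at 134, 89.0 and 128 CPM in WT, 89.0, 133 and 94.1 in Tet1-/- (clones 2.1, 2.2, 2.4), 126 and 147 in Tet2-/- cells, 78.8 and 62.3 in DKO cells, and 62.1 and 47.0 in TKO. All DKO and TKO clones lay below all other D6 libraries.

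The rise of Sox4 was 2.14-fold in WT (log2 1.10 ± 0.22, adjusted p = 0.00029) and 2.55-fold in Tet1-/- (1.35 ± 0.23). It was 0.57 ± 0.27 on the log2 scale in Tet2-/- (adjusted p = 0.1005) and 0.59 ± 0.27 in DKO (adjusted p = 0.0720), neither of them called. Without WT clone O4.2 at D0, the lowest Sox4 library, the WT rise was 0.85. The D6 order was Tet2-/- (136 ± 14.2 CPM), WT (117 ± 24.6), Tet1-/- (105 ± 23.9), DKO (70.6 ± 11.6) and TKO (54.6 ± 10.7). Ranges did not overlap between Tet1-/- and DKO (adjusted p = 0.902) or, by a narrow margin, between DKO and TKO (adjusted p = 0.682).

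**Figure D2:**
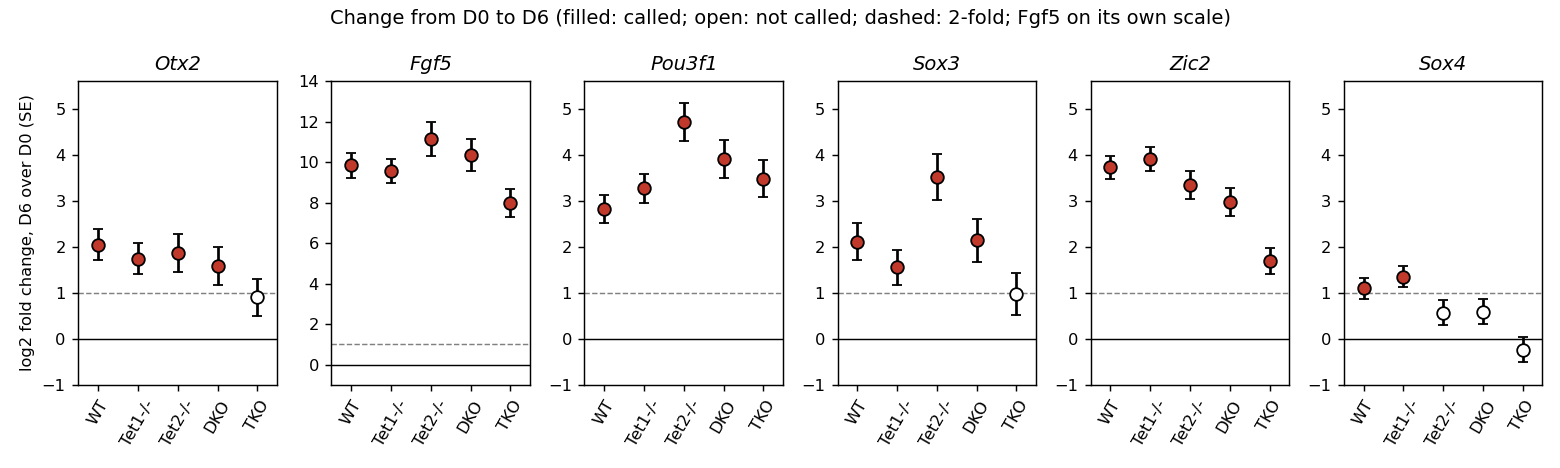
Fitted log2 fold change of D6 over D0 for each gene and genotype, with its standard error; filled points are called, open points are not, the dashed line is 2-fold, and Fgf5 has its own scale. Every gene except Pou3f1 has its lowest change in TKO (1.69 for Zic2, -0.24 for Sox4), and Fgf5, Pou3f1 and Sox3 have their highest in Tet2-/- (4.71 for Pou3f1, 3.51 for Sox3).

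The next comparison asked whether Tet loss altered the factors in undifferentiated cells. Of 20 tests at D0 (5 genes in 4 knockouts) 1 was called, Sox3 in TKO, and 8 had an unadjusted p under 0.05. Over all 14456 genes tested, 0.00692% were called in Tet1-/-, 3.19% in Tet2-/- cells, 0.0346% in DKO cells and 3.15% in TKO. In the same order, 1828, 4218, 2081 and 3813 genes had an unadjusted p under 0.05. Sox3 was 2.52-fold higher in TKO than in WT (log2 1.33 ± 0.38, adjusted p = 0.0483). That call rested on clone TKO_8.12, without which the difference was 0.44 (adjusted p = 0.392), and it was lost on leaving out any library other than clone TKO_8.4 (adjusted p from 0.0571 up) and under 4 of 10 other settings (adjusted p 0.0124 to 0.229).

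Summed levels of 11 endoderm markers at D0 were 38.1 CPM in clone TKO_8.12 and 8.97 to 12.6 in the other 11 libraries, with 2 of the 11 (Afp and Ttr) at a count of 0 in that clone. Their part in the TKO differences at D0 was not tested.

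Below the 2-fold limit, Zic2 was 1.92-fold higher in TKO (log2 0.94 ± 0.22, adjusted p = 0.0214) and Pou3f1 was 0.534 times the WT level (-0.91 ± 0.24, adjusted p = 0.0352). Both crossed the 2-fold limit when single clones were left out. Zic2 did so without clone TKO_8.4 (1.23) or WT clone O4.1 (1.02). Pou3f1 did so without clone TKO_8.12 (-1.26) or WT clone O4.2 (-1.02). Other leave-outs brought the differences as near to WT as 0.58 for Zic2 and -0.63 for Pou3f1. In Tet2-/- neither Pou3f1 (-0.66 ± 0.23, adjusted p = 0.0855) nor Sox4 (0.73 ± 0.23, adjusted p = 0.0641) passed. Every other D0 difference had an adjusted p of 0.199 or more, including those whose clones did not overlap with WT, such as Sox3 in Tet1-/- and DKO (adjusted p = 0.410 and 0.356), Otx2 in Tet1-/- (0.237) and Zic2 in DKO (0.285).

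At D6, 1 of 24 tests was called, Pou3f1 in Tet2-/-, and 6 had an unadjusted p under 0.05. The shares of all 15435 genes called by edgeR were 0% in Tet1-/-, 14.3% in Tet2-/- cells, 0% in DKO cells and 0% in TKO. In the same order, 1949, 6618, 2251 and 3629 genes had an unadjusted p under 0.05. DESeq2 called 44, 185 and 470 genes in Tet1-/-, DKO and TKO. Pou3f1 was 2.35-fold higher in Tet2-/- than in WT (log2 1.23 ± 0.37, adjusted p = 0.0316). The call was lost without clone Tet2_KO_3.10 or Tet2_KO_3.11 (adjusted p = 0.118 and 0.144) or WT clone O4.1 or O4.13 (0.0783 and 0.0941), with log2 differences of 1.16 to 1.26 in these cases. Over all genes and the 4 knockouts, 2201 were called, 304 without Tet2_KO_3.10 and 0 without Tet2_KO_3.11, so that with 1 Tet2-/- library, assumed to vary like the other groups, few calls of any gene remained.

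Sox3 in Tet2-/- was 2.13-fold the WT level (log2 1.09 ± 0.39, adjusted p = 0.0585), short of the threshold here and past it without WT clone O4.2 (1.37, adjusted p = 0.0342), with DESeq2 (1.11, adjusted p = 0.0222), without the filter on low counts (adjusted p = 0.0436), with only both groups fitted (0.0130), and without Tet1-/- clone 2.2 or 2.4 (0.0469 and 0.0129). In TKO, Zic2 (-1.08 ± 0.28, adjusted p = 0.0770) and Sox4 (-1.09 ± 0.23, adjusted p = 0.0643) were at 0.472 and 0.471 times WT and were not called. DESeq2 called both (adjusted p = 0.00535 and 0.000803), and edgeR called both without Tet1-/- clone 2.2 (0.0360 and 0.0340). Sox4 was also called by edgeR without the filter on low counts (0.0430) and without Tet1-/- clone 2.4 (0.0479) or WT clone O4.2 (0.0152). With 1 library left out, its difference ran from -1.32 (without clone TKO_8.4) to -0.89. All other D6 differences had adjusted p-values of 0.229 or more, although Fgf5 in TKO, whose clones differed widely, was -2.01 with an adjusted p of 0.0271 without clone TKO_8.4, when TKO is 1 library assumed to vary like the other groups. The Otx2 comparisons depended on WT clone O4.2, and Otx2 in Tet2-/- and DKO turned from below to above WT without it.

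**Figure D3:**
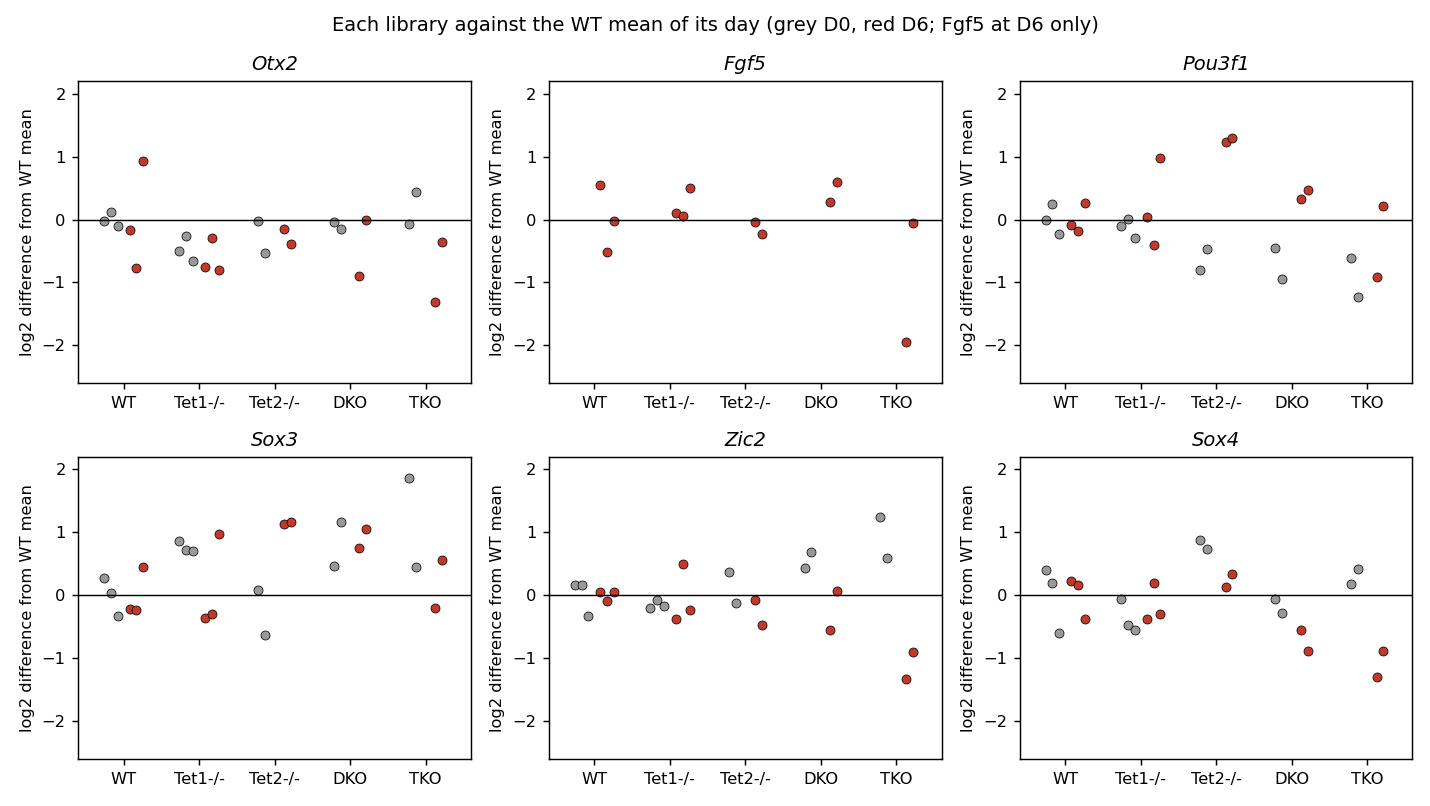
Log2 difference of each library from the WT mean of its day, D0 in grey and D6 in red (Fgf5 at D6 only). Zic2 in TKO lies above WT at D0 and below it at D6, Pou3f1 in Tet2-/- lies below WT at D0 and above it at D6, and single clones such as WT O4.2 for Otx2 stand away from their group.

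Whether the change from D0 to D6 differed from that of WT was tested directly. Of 24 tests 3 were called: Pou3f1 in Tet2-/-, and Zic2 and Sox4 in TKO. An unadjusted p under 0.05 was found in 6. Over all 15639 genes the called shares were 0% in Tet1-/-, 8.68% in Tet2-/- cells, 0% in DKO cells and 3.58% in TKO. Genes with an unadjusted p under 0.05 numbered 1200, 5109, 1255 and 3687 in the same order. DESeq2 called 12 genes in Tet1-/- and 20 in DKO. These comparisons share the WT libraries.

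Pou3f1 rose 3.71 times more in Tet2-/- than in WT (difference of log2 changes 1.89 ± 0.48, adjusted p = 0.0147), being below WT at D0 in both clones and above at D6 in both. Without clone Tet2_KO_3.10 at D0 the adjusted p was 0.0842 and without clone Tet2_KO_3.11 at D6 0.0501, with differences of 1.76 and 1.86. Sox3 had a difference of 1.40 ± 0.61 in Tet2-/- (adjusted p = 0.121), which passed with only these groups fitted (1.43, adjusted p = 0.0269) and in none of the other 10 settings or 24 leave-outs.

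Zic2 rose 0.243 times as much in TKO as in WT (-2.04 ± 0.37, adjusted p = 0.00565), and this call was kept on leaving out each of the 24 libraries in turn (adjusted p 0.00157 to 0.0206, difference -2.33 to -1.68). It missed the threshold when only the 4 groups concerned were fitted (-2.04, adjusted p = 0.0646), the highest of 11 other settings. The change of Sox4 in TKO differed from WT by -1.34 ± 0.35 (adjusted p = 0.0326). It was lost without clone TKO_8.4 at D0 (0.0706), clone TKO_8.12 at D6 (0.0993), WT clone O4.2 or O4.13 at D0 (0.0576 and 0.0506), or WT clone O4.1 or O4.13 at D6 (0.0734 and 0.0732), and with only these groups fitted (0.175), always with a negative difference of at least 1.09 in size. With the clone as a block it was -1.38 (adjusted p = 0.00448).

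Clone TKO_8.12 had the lowest D6 level of Fgf5, Otx2, Pou3f1, Zic2 and Sox4 among all 12 libraries. Markers of other cell types were summed at D6 as well. In TKO against WT edgeR called 0 of 8 endoderm, 0 of 13 mesoderm and 0 of 14 naive genes, and 0 of all genes. Summed levels of 11 endoderm markers were 36.3 to 57.2 CPM in TKO and 81.8 to 291 in WT. Summed levels of 13 primitive streak and mesoderm markers came to 238 to 562 CPM in TKO, 98.9 to 143 in Tet2-/- and 407 to 1206 in WT. Those of 14 naive markers came to 1390 to 1578 CPM in TKO, 1708 to 1800 in Tet2-/- and 604 to 1382 in WT, with 0 of them at a count of 0 in any library. Of the endoderm markers 0 to 3 were at a count of 0 in a D6 library, and of the mesoderm markers 0. Their part in the results for Zic2, Sox4 and Pou3f1 was not tested.

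Knockouts were also compared with each other. At D0, 3 of 30 tests were called, against 3.61% of all gene tests, and 13 had an unadjusted p under 0.05. Of all 14456 genes, 915 to 5265 had such a p, depending on the contrast. Sox4 was higher in Tet2-/- than in Tet1-/- (log2 1.15 ± 0.23, adjusted p = 0.00763), Zic2 higher in TKO than in Tet1-/- (1.13 ± 0.22, adjusted p = 0.00762), and Sox3 higher in TKO than in Tet2-/- (1.64 ± 0.43, adjusted p = 0.0333). The first lost its call without clone Tet2_KO_3.10 (1.08, adjusted p = 0.0752) and the second without clone TKO_8.12 (0.77) or with only both groups fitted (1.13, adjusted p = 0.0549). The third lost it in 7 of 12 leave-outs, down to 0.76 without clone TKO_8.12 (adjusted p = 0.207), and with only both groups fitted (adjusted p = 0.348).

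At D6, 2 of 36 tests were called, against 4.08% of all gene tests, and 11 had an unadjusted p under 0.05. Of all 15435 genes, 824 to 5273 had such a p, depending on the contrast. Both set TKO below Tet2-/-, for Pou3f1 (-1.47 ± 0.42, adjusted p = 0.0416) and for Sox4 (-1.29 ± 0.24, adjusted p = 0.0119). Without clone TKO_8.12 neither was called (-1.01 and -1.10, adjusted p = 0.239 and 0.0846), and without clone Tet2_KO_3.10 or Tet2_KO_3.11 adjusted p-values were 0.137 and 0.185 for Pou3f1 and 0.0626 and 0.115 for Sox4. Pou3f1 was also lost without any 1 of clones DKO_5.11 and DKO_5.12, Tet1-/- clone 2.1, and WT clones O4.1 and O4.13 (adjusted p 0.0520 to 0.0611).

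Pou3f1 and Sox3 varied together among the D6 libraries. Across these 12 libraries, which share their genotype groups, Pearson's r of their log2 CPM was 0.865, and 0.919 after each genotype's mean was subtracted. Within D0 it was -0.206. Tet1-/- clone 2.4 was high in both at D6, and WT clone O4.2 was the highest WT clone in both. The other pairs of members had r between -0.0218 and 0.653 within D6.

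**Figure D4:**
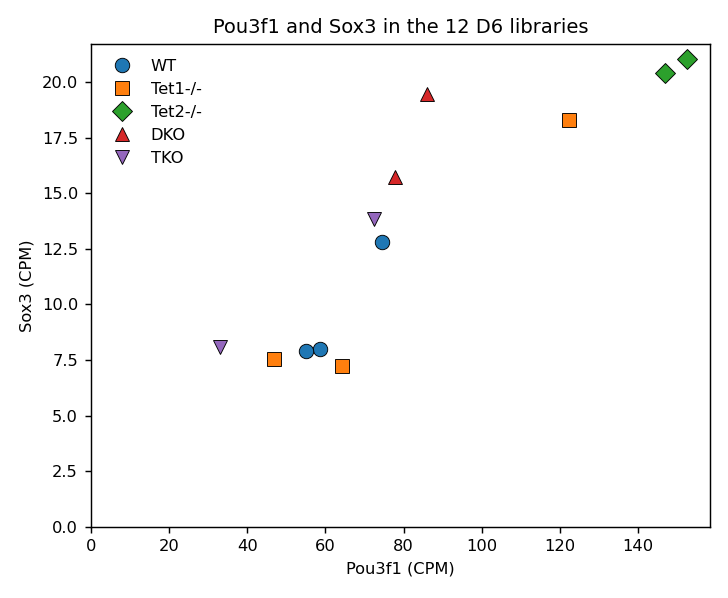
Pou3f1 against Sox3 (both in CPM) in the 12 D6 libraries, 1 point per clone and 1 symbol per genotype. The Tet2-/- clones lie at the top right (147 and 152 CPM of Pou3f1, 20.4 and 21.0 of Sox3), and 1 Tet1-/- clone lies near them, away from the other Tet1-/- clones.

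The genes whose levels followed the members most closely over the 24 libraries, by Pearson's r of log2 CPM, were 1700007G11Rik and Zfp608 for Fgf5 (both 0.988), Tubb4a and Rai2 for Otx2 (0.946 and 0.941), Cbln4 and Pim2 for Pou3f1 (0.979 and 0.976), Tmem54 and Sall2 for Sox3 (0.940 and 0.938), Klhl23 and Chd7 for Zic2 (0.981 and 0.979), and Mex3d and Inpp5f for Sox4 (0.955 and 0.922). These values hold the difference between days that most libraries share. Within D6 alone they were 0.926 for Cbln4 with Pou3f1, 0.935 for Mex3d and 0.953 for Inpp5f with Sox4, and 0.565 for Zfp608 with Fgf5. Within D0 they ranged from 0.177 (Cbln4) to 0.921 (Mex3d).

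Close relatives of the members were counted as well. Of 14 paralogs 10 were tested over both days, and in WT 3 rose and 4 fell, with a median log2 change of 0.05 (0.01 over all genes). Sox11, the SoxC relative of Sox4, rose in WT (log2 3.70 ± 0.22) from 10.4 ± 1.00 to 136 ± 16.2 CPM. Zic5, of the Zic family, rose (1.24 ± 0.24) from 8.27 ± 1.19 to 19.6 ± 2.29 CPM, and Otx1 rose (3.99 ± 0.53) from 0.112 ± 0.0527 to 1.84 ± 0.368 CPM. Sox2, the SoxB1 relative of Sox3, fell (log2 change -1.66), as did Fgf4 (-2.31), Sox1 (-1.40) and Pou3f3 (-1.65). Without WT clone O4.2 at D6 the change of Fgf4 was -3.53 and that of Sox2 -2.35, and the lowest falls without 1 library were -1.87 and -1.39. The fall of Sox1 lost its call without WT clone O4.13 at D0 or clone O4.2 or O4.13 at D6 (adjusted p = 0.0554, 0.0522 and 0.0567), and that of Pou3f3 without WT clone O4.1 at D0 (-1.09, adjusted p = 0.0837). Fgf6 and Zic4 had 0 counts in WT at D0 and at most 0.0363 CPM in WT at D6.

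In Tet2-/- at D6 the only paralogs called against WT were Sox1 (2.39 ± 0.63 higher on the log2 scale), a neural SoxB1 factor, and Otx1 (-2.55 ± 0.54). Sox1 stood at 8.18 ± 1.26 CPM in Tet2-/- and 1.55 ± 0.322 in WT. In TKO the change of Zic5 differed from that of WT by -1.54 ± 0.38 (adjusted p = 0.0236), the only paralog called in that comparison, and its call was lost without clone TKO_8.12 at D6 (-1.11, adjusted p = 0.0780) or WT clone O4.2 at D0 (-1.44, adjusted p = 0.0577) and with only these groups fitted (adjusted p = 0.149).

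Among 22 other genes of the formative and primed state, 12 rose and 4 fell in WT, 12 and 3 in Tet1-/-, 12 and 1 in Tet2-/- cells, 11 and 3 in DKO cells, and 9 and 4 in TKO (2 fell without TKO_8.12 at D6). Their median log2 change was 1.13 in WT, 1.54 in Tet2-/- and 0.87 in TKO. In WT the largest rises called were those of Fgf8 (8.69 ± 0.41), which also marks the primitive streak, Cdh2 (N-cadherin, 4.96 ± 0.64), Lef1 (a Wnt effector, 4.73 ± 0.43) and Sox11. In Tet2-/- the change was larger than in WT for 5 of 22, namely Foxd3 (difference 3.09 ± 0.81), Fgf15 (2.59 ± 0.81), Grhl2 (1.44 ± 0.47), Sall2 (1.24 ± 0.32) and Dnmt3a (1.19 ± 0.33). Each of the 5 lost its call without clone Tet2_KO_3.10 at D0 (adjusted p 0.0645 to 0.132) and without clone Tet2_KO_3.11 at D0 (0.0615 to 0.131). Without Tet2_KO_3.10 at D6 it was lost for Fgf15, Grhl2, Sall2 and Dnmt3a (0.0588 to 0.0989), and without Tet2_KO_3.11 at D6 for Foxd3, Fgf15, Grhl2 and Dnmt3a (0.0627 to 0.124). Grhl2 lost it in 16 of the 24 leave-outs, Tet1-/- and DKO libraries among them, and with the clone as a block (1.43, adjusted p = 0.0541). Fgf15 lost it in 8, among them WT clones O4.1 and O4.13 at either day. Against WT at D6 in Tet2-/-, 3 of the 22 were called, near the share of 14.3% over all genes: Foxd3 (3.112 ± 0.78) and Fgf15 (2.25 ± 0.58) higher, and Fgf8 (-2.25 ± 0.34) lower, at 21.1 ± 2.84 CPM against 99.0 ± 27.7 in WT. The 2 higher calls became 0 without Tet2_KO_3.11 or WT O4.1, 1 without Tet2_KO_3.10, 5 without WT O4.2 and 4 to 7 under 9 of 11 other settings, and Fgf8 lost its call without Tet2_KO_3.11.

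Fgf5 signals through FGF receptors and ERK, and 14 receptors, targets and feedback inhibitors of this pathway were counted. In WT 6 rose and 4 fell, led by Fgfr2 (3.68 ± 0.34), the feedback inhibitor Spry4 (-3.54 ± 0.36), the phosphatase Dusp4 (2.67 ± 0.30) and Etv4 (-2.44 ± 0.23). The numbers were 3 and 3 in Tet1-/- (5 rose without clone 2.1 at D0), 6 and 2 in Tet2-/- cells, 5 and 4 in DKO cells, and 5 and 3 in TKO (3 rose without TKO_8.12 at D0). The 2 that fell in Tet2-/- became 1 on leaving out each of its 4 libraries. Against WT at D6, Spry4 (2.66 ± 0.45) and Spry2 (1.17 ± 0.29) were higher and Fgfr3 (-2.20 ± 0.36) was lower in Tet2-/-, and 0 of 14 were called in the other knockouts by edgeR. The Tet2-/- calls of these lists and of the paralogs at D6 were all lost without Tet2_KO_3.11, as was every other gene's. Of Sox1, Otx1, Spry4, Spry2 and Fgfr3 only Spry4 kept its call without Tet2_KO_3.10, and Sox1 lost it also without WT O4.13 (adjusted p = 0.0656). The 1 paralog called higher became 3 without WT O4.2 or with the title number as a block, and 2 without Tet1-/- clone 2.2 or 2.4 or without the filter on low counts.

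Other lineage and state markers moved with the members as follows. From D0 to D6, 13 of 14 naive genes fell in WT, 13 in Tet1-/-, 10 in Tet2-/- cells, 12 in DKO cells and 12 in TKO. Of 13 primitive streak and mesoderm genes 12 rose in WT, 12 in Tet1-/-, 5 in Tet2-/- cells, 11 in DKO cells and 10 in TKO. Of 8 endoderm genes tested, 5 rose in WT, Tet1-/- and DKO and 2 in Tet2-/- and TKO. Of 10 contractile and mesenchymal genes, 9 rose in WT and Tet1-/- and 8 in the other genotypes. Of 13 neuroectoderm genes tested, 5 rose in WT, 6 in Tet1-/- and Tet2-/-, and 3 in DKO and TKO, while 4 fell in each genotype except Tet2-/-, where 1 fell. The summed level of all 16 listed neuroectoderm genes in WT was 162 to 244 CPM at D0 and 129 to 153 at D6. Some of these counts depended on 1 library. The 3 neuroectoderm genes of TKO became 5 without TKO_8.4, WT O4.1, Tet1-/- 2.4 or either DKO clone at D6 or WT O4.13 at D0, and 7 without Tet1-/- 2.2 at D6. The 4 that fell in DKO became 2 without DKO_5.12 at D6, and the 1 in Tet2-/- became 0 on leaving out each of its 4 libraries. The 2 endoderm genes of TKO became 4 without TKO_8.12 at D0 and 1 without TKO_8.4 at D6. The 10 naive genes of Tet2-/- became 4 without Tet2_KO_3.10 and 6 without Tet2_KO_3.11 at D6, and without Tet2_KO_3.11 at D0 its neuroectoderm count became 3 and its contractile count 5. Against WT at D6, Tet2-/- had 5 of 14 neuroectoderm genes called higher, 10 of 13 mesoderm, 4 of 8 endoderm and 5 of 10 contractile genes called lower, and 4 naive genes higher and 1 lower, while 1 of 6 ESC markers, Pou5f1, was higher. Without WT O4.2 the naive genes called higher were 10 and the ESC markers 4, and without Tet2_KO_3.10 the counts were 0 neuroectoderm, 3 mesoderm, 1 endoderm, 1 contractile, 1 naive and 0 ESC markers. The part of these differences in the levels of Pou3f1 and Sox3 was not tested.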

How the data were processed

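RNA-seq of 24 libraries was analysed from 2 count tables, 1 per day. The authors deposited raw read counts per gene row, made from alignments by STAR 2.5.1 to mm9. The counting program is named differently in the sources, and its strand setting is not given in the sources used here. ERCC spike-ins were added, but no spike-in scaling was done here. The first row of each symbol was used.

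Samples were grouped by genotype and day from their labels. Genes were filtered with edgeR 4.0.16 filterByExpr (minimum count 10), scaled by TMM and tested with its quasi-likelihood test (limma 3.58.1, R 4.3.3), fitted within D0, within D6 and over all 24 libraries. Adjusted p-values are Benjamini-Hochberg over all genes tested in a contrast, and a call needed an adjusted p below 0.05 and a change above 2-fold. On simulated counts with 200 genes changed by 2 on the log2 scale (smaller changes were not simulated), 194, 176 and 165 were recovered for TKO at D0, Tet2-/- at D6 and the TKO change, with 1, 8 and 8 false calls. Correlations used log2 CPM with a prior count of 2.

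The 6 genes and the gene lists were chosen with earlier results of these data known. Genes named were the 6, their paralogs, up to 4 called genes of a list with the largest change in a contrast (all 5 are named for the Tet2-/- change, the fifth chosen after its values were seen), and the 2 genes most correlated with each. Clones are the same lines at both days by their labels. Deviations of a clone from its group mean correlated between days with r of 0.0613 to 0.164. The lowest, that of Tet1-/- clone 2.1, was below its r with another clone (0.0625). The main fits held no clone term and treated libraries of the same clone at both days as independent. The clone served as a block in an alternative fit only. Knockout clones are separate edited lines and WT libraries carry separate clone names, and p-values measure the spread between these clones. Alternatives were DESeq2 1.42.0, other scaling, no filter, summed or highest rows, robust dispersion, both blocks, fits of the compared groups alone, and leaving out libraries. Robust dispersion, the highest row and leaving out TKO_8.12 with WT O4.2 were chosen after seeing the data.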

Additional observations from a re-analysis of the deposited data

Results flagged for a closer look

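In 3 cases the change from D0 to D6 in a knockout differed from that in WT by the test of the difference itself (edgeR's quasi-likelihood interaction test). The change of Pou3f1 in Tet2-/- was larger by 1.89 on the log2 scale, that of Zic2 in TKO smaller (-2.04) and that of Sox4 in TKO smaller (-1.34). In all 3 cases both clones of the knockout lay on opposite sides of the WT mean at D0 and at D6. The calls came from these same values, so this is no further support. At D0 the Sox4 ranges of TKO (59.2 to 69.8 CPM) and WT (34.4 to 69.5) overlapped. Of 24 leave-outs, 2 lost the Pou3f1 call, 0 the Zic2 call and 6 the Sox4 call. No group had 4 or more libraries, so single libraries were not tested for standing apart.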

How the results depend on the processing

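The counts of 25 calls between days and 3 in the test of the change stayed within 1.5 times under every setting, although with the compared groups alone the 2 calls of the change held 1 of the 3, Pou3f1 in Tet2-/-, and added Sox3 in Tet2-/-, and leaving out 1 library gave 24 to 27 and 2 to 3. The 1 call against WT at D0 became 0 with library totals only, with summed rows, with the title number as a block and with the compared groups alone, and 3 by adjusted p alone; leaving out 1 library gave 0 to 2. The 1 call at D6 became 4 with DESeq2, 3 without the filter, 2 with the number block, 2 with the compared groups alone and 2 without TKO_8.12 and WT O4.2 (chosen after seeing the data); leaving out 1 library gave 0 to 4. The 3 calls between knockouts at D0 became 5 with DESeq2 and 6 by adjusted p alone (leaving out 1 library, 1 to 9), and the 2 at D6 became 1 with the compared groups alone and 1 without TKO_8.12 and WT O4.2 (0 to 5). Over all genes, DESeq2 called 50 in Tet1-/- and 111 in DKO against WT at D0, where edgeR called 1 and 5; its higher counts at D6 and in the test of the change stand beside those results. The cause was not tested.

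Of 3109 values of 108 member differences under alternatives, 2979 kept direction and side of the threshold, and 43 changed sign, all in 25 differences with adjusted p of 0.1 or more and 0 of them called. Of those differences whose values the text gives, Otx2 against WT at D6 became 0.16 in Tet2-/- and 0.0602 in DKO without TKO_8.12 and WT O4.2 (leaving out 1 library, -0.77 to 0.16 and -1.07 to 0.0601). The Fgf5 change in Tet1-/- against WT became 0.32 with the clone block (leaving out 1 library, -0.77 to 0.22), and in DKO leaving out 1 library gave -0.39 to 5.49, the last with a lone D0 library at 0 counts, a fitted value that is no bound. With the clone as a replicate block the members' calls kept their side of the threshold, and Sox4 in TKO had an adjusted p of 0.00448. Title numbers within a day share only a number (median r of deviations 0.0791 at D0 and -0.0544 at D6). Of the members only Fgf5 lay near the count limit at D0, where 3 counts were 0.0876 to 0.148 CPM. The lowest Sox3 library there had 1.37 CPM.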
